A study of Mus musculus with 4 samples.

Results

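The p53 pathway was followed through 32 genes in invariant natural killer T (iNKT) cells, the CD1d-restricted T cells with a semi-invariant receptor, sorted from mouse thymus. The 32 genes, p53 itself with its regulators and a set of established p53 targets, were taken by symbol from a given list out of 53715 gene IDs in the count table, and all 32 were found. RNA was sequenced from 2 libraries of Mettl3fl/flCD4-cre mice, called Mettl3 knockout below, and from 2 libraries of WT mice, all labelled C57BL/6 and 6 to 8 weeks old. Live cells stained by a CD1d tetramer and TCRβ were sorted, and cDNA was made by Smart-seq2, which covers whole transcripts and keeps no strand information. METTL3 is the enzyme that writes m6A on mRNA, and Cre driven by Cd4 acts from the CD4+CD8+ stage of thymocytes, so the cells had passed through earlier stages with the gene intact. The labels do not give Cre in the WT mice, nor the number of animals behind a library or whether animals were pooled, so a p-value here speaks for the spread among 4 libraries, part or all of which could be technical.

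p53 is a transcription factor that is held at a low protein level by MDM2, a ubiquitin ligase, and by MDM4, which blocks its activation domain. Stress such as DNA damage releases it, and it then switches on genes for cell cycle arrest, apoptosis, DNA repair and metabolic adaptation, among them Mdm2, which closes a feedback loop. Thymocytes are a classic setting for p53-dependent apoptosis, and p53 activity is controlled mostly on the protein, so the level of Trp53 mRNA is not a measure of its activity.

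p53 binds pairs of a 10-base consensus, here called the p53 decamer, and promoter stretches with a match are shown for members the results turn on, to let the letters be read beside the values. Promoter windows from RefSeq on GRCm38.p6, from 250 bases before to 50 bases after each gene start, were available for 24 of the 32 members. At least 1 exact decamer, whose consensus reads the same on both strands, was present in the windows of 12 of these 24 members, and in those of 9.55% of all 27025 genes with a window. A pair of adjacent decamers with up to 2 mismatches outside the central C and G of each, a pattern that can overlap an exact decamer, was found in 3 of the 24 members, Cdkn1a, Ccng1 and Rps27l, and in 0.392% of all genes. Shown are the 3 pairs and, among the 10 members with the smallest p, the exact decamers of Bax, Mdm2, Trp53 and Sesn1. Aen, Polk, Gadd45a, Ei24 and Ppm1d also held an exact decamer and are not printed. Cdkn1a and Rps27l each held a further exact decamer outside the pair, which is not marked. The match is in capitals below, each sequence runs 5′ to 3′ on the strand of its gene, and each of the 3 pairs carries 1 mismatch to the consensus.
Cdkn1a, upstream of the gene, chr17:29090908-29090967, plus strand: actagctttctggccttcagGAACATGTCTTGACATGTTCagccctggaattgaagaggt
Ccng1, upstream of the gene, chr11:40755442-40755501, minus strand: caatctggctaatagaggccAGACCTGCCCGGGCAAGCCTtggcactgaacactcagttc
Rps27l, in an intron, chr9:66946276-66946335, plus strand: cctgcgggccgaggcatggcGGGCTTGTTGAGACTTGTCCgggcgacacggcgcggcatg
Bax, upstream of the gene, chr7:45467070-45467119, minus strand: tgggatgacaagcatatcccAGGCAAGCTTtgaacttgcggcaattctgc
Mdm2, upstream of the gene, chr10:117710915-117710964, minus strand: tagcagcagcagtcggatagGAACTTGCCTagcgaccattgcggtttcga
Trp53, upstream of the gene, chr11:69580264-69580313, plus strand: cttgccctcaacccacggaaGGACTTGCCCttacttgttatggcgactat
Sesn1, in an intron before an internal start, chr10:41887246-41887295, plus strand: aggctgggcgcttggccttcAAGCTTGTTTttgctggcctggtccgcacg
No exact decamer stood in the windows of Phlda3, Sesn2, Btg2 or Fas, which says only that these letters are not in those windows.

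The depth was 25402792 and 24374587 counts over genes in Mettl3 knockout replicates 1 and 2, and 28316016 and 25931610 in WT replicates 1 and 2. Levels are CPM, the counts relative to the TMM-scaled size of each library. Fold changes, standard errors (SE) and 95% intervals were estimated in edgeR by quasi-likelihood, and p was adjusted by Benjamini-Hochberg over the 14185 genes tested. A gene was called at an adjusted p under 0.05. Mettl3 itself was at 78.1 and 91.4 CPM in the knockout libraries, against 92.2 and 123.6 CPM in the WT libraries (log2 fold change -0.35, SE 0.19, edgeR adjusted p = 0.357), and since exons outside the deleted part still count, this does not check the deletion. Genes that define T and iNKT cells were present in every library. Cd3e was at 570.7 and 485.9 CPM in the knockout and 434.5 and 514.9 CPM in WT, and Zbtb16, the iNKT master regulator, at 352.6 and 350.4 against 255.5 and 192.3 CPM. Cd3d was lower, at 274.8 and 262.1 against 356.0 and 327.0 CPM, as was Cd3g, at 147.9 and 124.4 against 191.6 and 207.3 CPM. Neither was called (edgeR adjusted p = 0.132 and 0.0866). Of the 12 listed markers of T and iNKT cells, 4 had a positive and 8 a negative log2 fold change. Markers of myeloid and dendritic cells summed to 2100 to 2255 CPM in the knockout libraries and to 123.6 to 246.9 CPM in the WT libraries. Of the 16 listed, 14 were tested, 7 rose and 0 fell, where 1.09% and 1.51% of all tested genes did. Among those that rose, Csf1r (24 and 0 counts in WT) and Cd209a (0 and 42) passed the filter on low counts only through their knockout libraries. H2-Ab1, H2-Aa, Cd74 and Lyz2 averaged 624, 551, 532 and 355 CPM in the knockout and made up most of its sum. Of the 14 tested, 12 had a positive log2 fold change, and Cst3 and C1qa a negative one (-0.65 and -0.14). None of the 16 listed markers was at 0 in every library, and the part of such transcripts in the results below was not tested. In bulk RNA, fewer cells of a type and less RNA per cell cannot be told apart.

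Among the 32 p53 pathway genes, Phlda3 and Sesn2 rose more than 2-fold in the Mettl3 knockout and Sesn1 fell, while the other 29 did not pass the test. Several pro-apoptotic and arrest genes, Pmaip1, Cdkn1a, Bax and Fas among them, lay higher in both knockout libraries than in both WT libraries without passing it, and Btg2 and Trp53 itself lay lower. The 2 higher calls are 6.2% of the members, against 1.09% of all tested genes, and the 1 lower call is 3.1%, against 1.51%. All 32 members passed the filter on low counts, Cdkn1a only through its knockout libraries. The median log2 fold change of the 32 was 0.14, beside 0.02 over all tested genes. Without WT replicate 1 the members' median was -0.005, beside 0.05 over all genes then tested.

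Across the 32 members the libraries of the genotypes did not overlap for 12 genes that were higher and 8 that were lower in the knockout, which is 37.5% and 25%, beside 25.4% and 24.9% of all tested genes. An unadjusted edgeR p under 0.05 was reached by 8 members in the higher direction and 3 in the lower, 25% and 9.4% of members, against 10.5% and 9.69% of all tested genes. DESeq2 called 5 members higher (Cdkn1a, Bax, Pmaip1, Phlda3 and Sesn2) and 2 lower (Sesn1 and Btg2), 15.6% and 6.2%, against 4.78% and 4.86% of all genes. The share of lower members is close to the background by the first 2 of these counts. The counts of higher members each include Cdkn1a, which passed the filter through its knockout libraries alone. Without it, a count added after the data were seen, 11, 7 and 4 of the other 31 were higher by these measures, or 35.5%, 22.6% and 12.9%, and their median log2 fold change was 0.138. These shares describe a list chosen with earlier results known and were not tested.

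**Figure D1:**
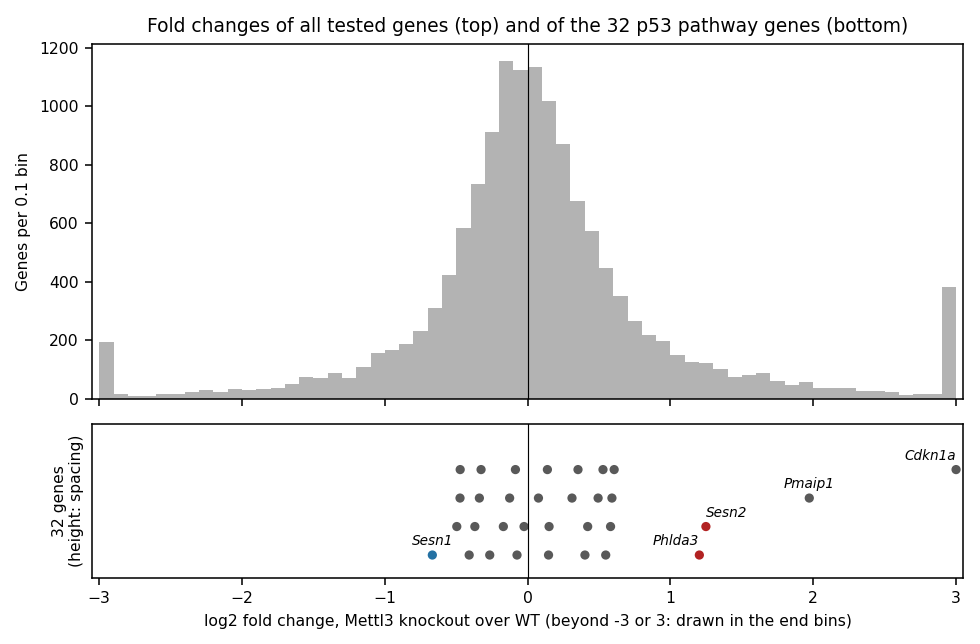
Histogram of log2 fold changes, Mettl3 knockout over WT, over the 14185 tested genes in 0.1-wide bins (top), with genes beyond -3 or 3 counted in the end bins. The 32 members are points at their fold changes, stacked only for spacing (bottom, red and blue for called higher and lower). Cdkn1a, at 3.81, is drawn at 3. Most members fall within the bulk of tested genes, with Phlda3, Sesn2, Pmaip1 and Cdkn1a to the right of it.

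**Figure D2:**
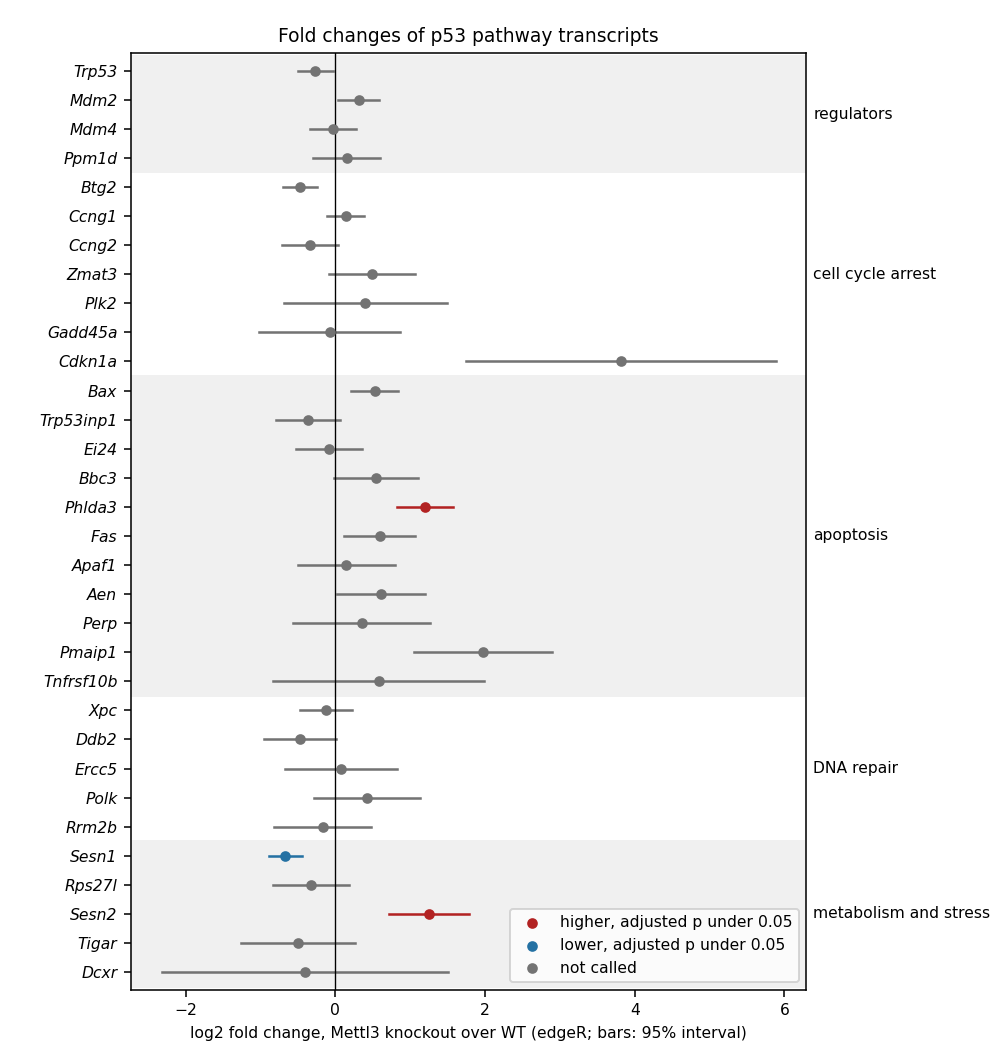
The log2 fold change of each p53 pathway gene, Mettl3 knockout over WT (x axis), with 95% interval bars from edgeR on 2 libraries per genotype, genes grouped by role (y axis). Phlda3 and Sesn2 are the called rises and Sesn1 the called fall, and Cdkn1a has the largest estimate with a wide interval, 1.74 to 5.88.

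Of the metabolic and stress genes, the sestrins moved in opposite directions. Sestrins restrain the growth kinase mTORC1 under amino acid and oxidative stress, and Sesn2 is also a target of the transcription factor ATF4. Sesn2 (ENSMUSG00000028893.8; GRCm38 chromosome 4, 132492032 to 132510501, minus strand) was at 40.0 and 46.6 CPM in the knockout libraries, against 19.03 and 17.3 CPM in the WT libraries. Both knockout libraries stood far above both WT libraries, and the transcript rose 2.38-fold (log2 1.25, SE 0.23, edgeR adjusted p = 0.041). Sesn1 (ENSMUSG00000038332.13; chromosome 10, 41809935 to 41908424, plus strand) was at 319.7 and 301.9 CPM in the knockout, against 488.0 and 499.4 CPM in WT. It fell 1.59-fold (log2 -0.67, SE 0.10, edgeR adjusted p = 0.0185), with replicates of a genotype closer to each other than to the other genotype. Per kb of exon, the ratio of Sesn2 to Sesn1 was 0.143 and 0.177 in the knockout libraries and 0.0447 and 0.0397 in the WT libraries, so Sesn1 remained the more abundant sestrin transcript in all 4 libraries.

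For the other members of this group no call was made. Tigar, a fructose bisphosphatase that slows glycolysis, was at 9.13 and 11.0 CPM in the knockout, against 15.2 and 13.1 CPM in WT. Rps27l, a ribosomal protein gene, was at 28.1 and 26.8 against 36.7 and 31.8 CPM; it is a close copy of Rps27, so the split of its reads is uncertain. Both genes were lower in both knockout libraries than in both WT libraries, and neither passed (edgeR adjusted p = 0.454 and 0.463). Dcxr, a xylulose reductase, stood at 3.26 and 0.802 CPM in the knockout and 1.60 and 3.98 CPM in WT, where the genotypes overlapped and the replicates spread more widely than the genotypes.

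Of the 11 genes with a role in apoptosis, 9 had a positive log2 fold change. Their median was 0.55, beside 0.02 over all tested genes, a difference that was not tested. Only 1 of the 11, Phlda3, was called, where 1.09% of all tested genes were called higher. Phlda3 (ENSMUSG00000041801.5; chromosome 1, 135766119 to 135769136, plus strand) encodes a pleckstrin homology protein that opposes AKT survival signalling. It was at 96.2 and 99.1 CPM in the knockout libraries, against 43.0 and 41.8 CPM in the WT libraries, a rise of 2.30-fold (log2 1.202, SE 0.16, edgeR adjusted p = 0.0134). The replicates of each genotype lay within 3 CPM of each other. Pmaip1, the BH3-only gene also called Noxa, was at 24.3 and 18.5 CPM in the knockout, against 3.84 and 7.24 CPM in WT. The log2 estimate, 1.97 with SE 0.40 and a 95% interval of 1.05 to 2.90, had edgeR adjusted p = 0.0512, just outside the threshold. Pmaip1 did pass with DESeq2 (adjusted p = 0.00151), with edgeR on total-count scaling (adjusted p = 0.0444) and with edgeR on genes of at least 5 CPM in 2 libraries (adjusted p = 0.0213).

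Bax, which forms pores in the mitochondrial outer membrane, was at 190.3 and 219.3 CPM in the knockout libraries, against 149.5 and 134.4 CPM in the WT libraries. Its log2 fold change was 0.53 (SE 0.13, edgeR adjusted p = 0.0908), and it passed with DESeq2 (adjusted p = 0.00614). Fas, a death receptor, was at 49.9 and 46.3 CPM in the knockout, against 29.2 and 34.9 CPM in WT (log2 0.59, SE 0.20, edgeR adjusted p = 0.166). For both genes each knockout library lay above each WT library. The same order held for Bbc3, the BH3-only gene also called Puma, at 66.8 and 93.6 against 45.7 and 64.5 CPM, for Aen, a nuclease gene, at 42.1 and 30.6 against 22.7 and 25.3 CPM, and for the TRAIL receptor Tnfrsf10b, at 3.46 and 3.29 against 1.67 and 2.91 CPM. None of these 3 passed (edgeR adjusted p = 0.233 to 0.655). Trp53inp1, an autophagy and stress gene, was at 68.7 and 63.6 CPM in the knockout and 74.8 and 96.6 CPM in WT. The genotypes overlapped for the other 3. Apaf1, the scaffold of the apoptosome, was at 38.6 and 26.9 CPM in the knockout and 25.1 and 34.5 CPM in WT. Perp, a membrane protein gene, was at 13.99 and 13.9 against 14.3 and 7.205 CPM, and Ei24, whose product sits in the endoplasmic reticulum, at 77.5 and 60.5 against 67.4 and 79.5 CPM.

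**Figure D3:**
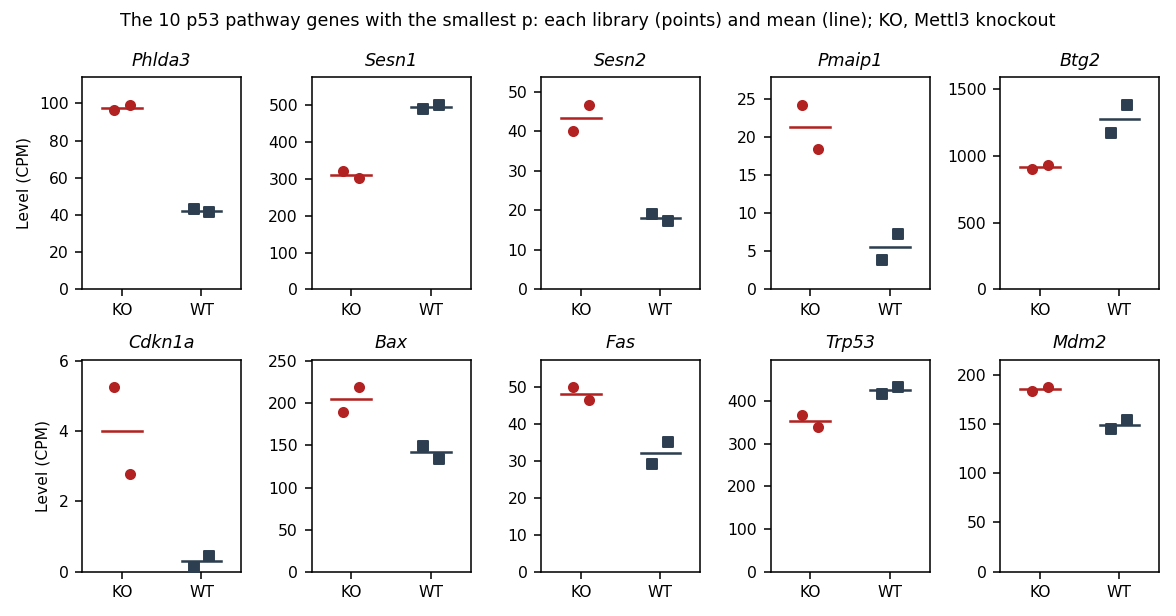
CPM (y axis, each from 0) in each library for the 10 members with the smallest p, Mettl3 knockout at the left and WT at the right of each panel; points are libraries and lines are means of 2. The genotypes do not overlap in any panel, which follows in part from picking by small p, and 25.4% of all tested genes were higher and 24.9% lower without overlap. Phlda3 separates at 96.2 and 99.1 against 43.0 and 41.8 CPM.

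The arrest genes split by level and direction, and 0 of the 7 passed with edgeR (2 did with DESeq2, Cdkn1a and Btg2, which also had an unadjusted edgeR p under 0.05). Cdkn1a, which encodes the cyclin-dependent kinase inhibitor p21, was scarce: 135 and 69 counts, or 5.25 and 2.77 CPM, in the knockout libraries, against 4 and 11 counts, or 0.142 and 0.438 CPM, in the WT libraries. Its log2 fold change of 3.81 was the largest among the members, but the error was large too (SE 0.91, 95% interval 1.74 to 5.88, edgeR adjusted p = 0.0635). With DESeq2 it passed (adjusted p = 0.0108), and with limma voom it did not (adjusted p = 0.219). Cdkn1a passed the filter on low counts only through its knockout libraries, so the DESeq2 pass is not separate support for a rise. In GENCODE M21 an antisense gene covers 7.7% of its exon length, and reads of the pair cannot be told apart without strand. Genes on the opposite strand likewise cover 19.1% of the exon length of Gadd45a, 8.0% of Rrm2b, 6.7% of Ei24 and 3.3% of Tigar, and a gene on the same strand covers 12.2% of that of Bax. Btg2, an antiproliferative gene whose product recruits mRNA deadenylases, was the most abundant member per kb of exon in both genotypes. It was at 905.3 and 936.2 CPM in the knockout, against 1173 and 1382 CPM in WT (log2 -0.47, SE 0.10, edgeR adjusted p = 0.0548), and passed with DESeq2 (adjusted p = 0.000669), with edgeR at 5 CPM or more in 2 libraries (adjusted p = 0.0231) and with edgeR without WT replicate 1 (adjusted p = 0.0312).

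Of the remaining arrest genes, Ccng1 and Ccng2, atypical cyclins, showed small shifts in opposite directions. Ccng1 was at 308.7 and 312.7 CPM in the knockout, against 271.1 and 293.6 CPM in WT, and Ccng2 at 79.8 and 88.2 against 97.5 and 115.2 CPM (edgeR adjusted p = 0.519 and 0.287). Zmat3, an RNA-binding protein gene, was at 34.4 and 49.99 CPM in the knockout and 29.9 CPM in each WT library. Gadd45a, a stress sensor, and Plk2, a polo-like kinase, varied more between replicates than between genotypes: Plk2 was at 20.5 and 35.3 CPM in the knockout and 30.4 and 11.0 CPM in WT, and Gadd45a at 13.8 and 12.6 against 9.28 and 18.9 CPM.

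None of the 4 regulators passed (0 with DESeq2 too, and 2, Trp53 and Mdm2, at an unadjusted edgeR p under 0.05). Trp53 was at 366.3 and 339.9 CPM in the knockout libraries, against 417.0 and 432.0 CPM in the WT libraries (log2 -0.27, SE 0.10, 95% interval -0.50 to -0.03, edgeR adjusted p = 0.19). Mdm2 was at 183.0 and 187.2 CPM in the knockout, against 145.0 and 153.6 CPM in WT (log2 0.31, SE 0.12, 95% interval 0.03 to 0.59, edgeR adjusted p = 0.201). Each gene's genotypes were apart, in opposite directions, and neither passed. Per kb of exon the ratio of Mdm2 to Trp53 was 0.398 and 0.438 in the knockout libraries and 0.277 and 0.283 in the WT libraries, a description with no test. Mdm4 was at 143.0 and 136.8 CPM in the knockout, within the WT values of 134.2 and 150.8 CPM, and its log2 fold change had a 95% interval of -0.33 to 0.28. The phosphatase gene Ppm1d, a target that switches the pathway off, was at 164.7 and 112.7 CPM in the knockout, on either side of the WT values of 121.9 and 128.3 CPM.

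Among the 5 repair genes none passed (0 with DESeq2 too, and 0 at an unadjusted edgeR p under 0.05). Ddb2, which recognises ultraviolet lesions, was the sole gene of the 5 whose genotypes did not overlap, at 28.1 and 31.98 CPM in the knockout, against 40.5 and 42.9 CPM in WT (log2 -0.47, SE 0.21, edgeR adjusted p = 0.255). Exons of Acp2 on the other strand cover 23.8% of its exon length, so its reads are uncertain. Xpc, its partner in lesion recognition, Ercc5, a repair nuclease gene, Polk, a translesion polymerase gene, and Rrm2b, a ribonucleotide reductase subunit gene, had log2 fold changes of -0.13, 0.08, 0.42 and -0.17, each with an interval that includes 0. Xpc was at 92.7 and 83.3 CPM in the knockout and 92.2 and 100.1 CPM in WT, and Rrm2b at 19.3 and 15.2 against 20.1 and 18.7 CPM. Ercc5, at 20.6 and 27.7 against 17.4 and 28.9 CPM, and Polk, at 31.9 and 25.8 against 16.5 and 27.1 CPM, varied most within WT.

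**Figure D4:**
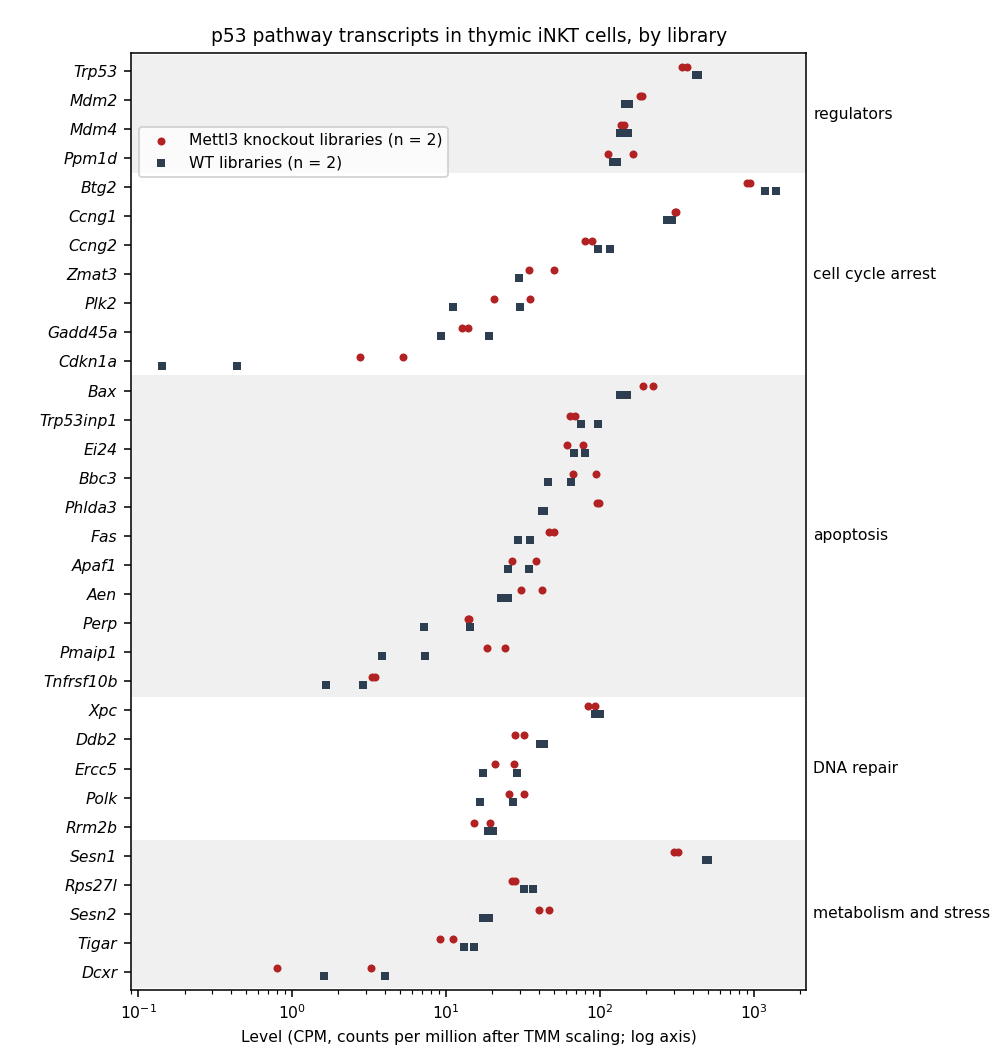
CPM of each member in each library on a log axis, Mettl3 knockout as circles above WT as squares, grouped by role. Levels span Btg2, at 905.3 CPM or more in every library, to Cdkn1a, at 0.142 to 5.25 CPM, and most pairs of genotypes lie close together.

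Per kb of exon, which allows levels to be set against each other between genes, Btg2 averaged 335.7 CPM per kb in the knockout and 465.8 CPM per kb in WT. Sesn1 was the fifth member by this level in the knockout, at 78.1 CPM per kb, and the second in WT, at 124.0 CPM per kb, while Bax was the second in the knockout, at 129.95 CPM per kb, and the fourth in WT, at 90.1 CPM per kb. Pmaip1 stood at place 19 of the 32 in the knockout and at place 30 in WT. Cdkn1a, at 1.13 and 0.0816 CPM per kb, was among the 2 scarcest in both genotypes, and neighbouring places in this order were not tested against each other.

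The 3 calls rested on all 4 libraries. The fold changes were steady when a library was left out, at log2 1.177 to 1.223 for Phlda3, 1.13 to 1.36 for Sesn2 and -0.71 to -0.63 for Sesn1, but none of the 3 passed. Without WT replicates 1 and 2 the edgeR adjusted p was 0.063 and 0.0817 for Phlda3, 0.127 and 0.169 for Sesn2, and 0.0513 and 0.0764 for Sesn1. Without Mettl3 knockout replicates 1 and 2 it was 0.105 and 0.121 for Phlda3, 0.149 and 0.231 for Sesn2, and 0.13 and 0.159 for Sesn1. Sesn2 also missed the threshold without a filter on low counts (edgeR adjusted p = 0.0551).

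**Figure D5:**
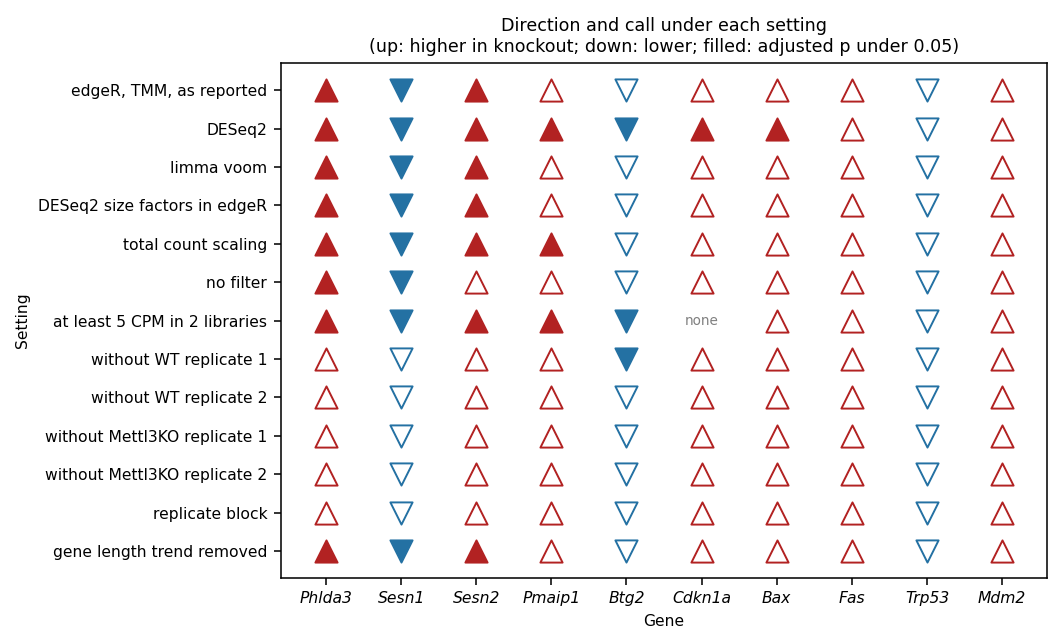
Each row is a setting of the analysis and each column 1 of the 10 members with the smallest p; triangles point up for higher and down for lower in the Mettl3 knockout, and are filled at an adjusted p under 0.05. The genotypes of these 10 do not overlap, so leaving out a library could hardly turn a direction. Directions hold in all rows for these 10 genes (Cdkn1a has no value at 5 CPM or more in 2 libraries), while Phlda3, Sesn1 and Sesn2 are open in the 4 rows that leave out a library and in the row with a replicate block, and Sesn2 also in the row without a filter.

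The summed myeloid and dendritic markers also differed between replicates. Within the knockout, replicate 2 held more of the markers (2255 against 2100 CPM in replicate 1), more Phlda3 and Sesn2, and less Pmaip1 and Cdkn1a. Within WT, replicate 2 held more of the markers (246.9 against 123.6 CPM in replicate 1), more Pmaip1 and Cdkn1a, and less Phlda3 and Sesn2. With 2 libraries per genotype, no relation between the markers and the members was tested. Markers of CD4+CD8+ thymocytes summed to 1232 to 1349 CPM in the knockout and 833.5 to 952.2 CPM in WT, with 0 of 10 called by edgeR. At an unadjusted edgeR p under 0.05, 5 of them were higher and 1 lower. Over all tested genes 10.5% were higher and 9.69% lower at that p, the shares to set beside the count of each marker list here. B cell markers summed to 28.9 to 39.1 against 10.6 to 18.7 CPM, with 0 of 7 called by edgeR (2 higher at an unadjusted p under 0.05) and Pax5 at 0 in all 4 libraries. Erythroid markers summed to 7.31 to 9.07 against 0.955 to 3.31 CPM and thymic stroma markers to 8.99 to 12.5 against 11.1 to 16.002 CPM, with 0 called in either list by edgeR (2 higher and 0 lower, and 2 higher and 1 lower, at an unadjusted p under 0.05). The higher genes, Hba-a1, Alas2, Cdh5 and Aire, passed the filter on low counts only through their knockout libraries, as did Fcer2a among the B cell markers. Col1a1, the lower gene, passed only through its WT libraries. The counts that include these genes are therefore not separate support for a shift. Of the 12 T and iNKT cell markers, which summed to 6176 to 6318 against 6752 to 7841 CPM, Cd5 rose and Klrb1c, Cd44 and Tbx21 fell by the edgeR test. Over all tested genes 1.09% rose and 1.51% fell. At an unadjusted edgeR p under 0.05, 2 of the 12 were higher and 6 lower.

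Other genes of the pathway showed few calls. Of 36 further p53 targets, 26 were tested and 0 were called by edgeR, with a median log2 fold change of 0.21. At an unadjusted edgeR p under 0.05, 4 were higher and 3 lower, where 10.5% and 9.69% of all tested genes were. Those with the smallest p were Ckap2, a spindle protein gene, at 41.9 CPM in both knockout libraries against 22.9 and 20.7 CPM in WT (edgeR adjusted p = 0.0689), and Rnf144b, a ubiquitin ligase gene, at 3.38 and 5.66 against 14.6 and 12.5 CPM (edgeR adjusted p = 0.0958). Psrc1, a spindle gene, was at 10.2 and 6.26 against 2.06 and 0 CPM, and Fdxr, ferredoxin reductase, at 61.4 and 68.1 against 44.2 and 43.5 CPM (edgeR adjusted p = 0.111 and 0.135). Psrc1, at 58 and 0 counts in WT, passed the filter on low counts only through its knockout libraries. It is 1 of the 4 higher genes above, and its place there is not separate support for a rise. Eda2r, Kitl, Spata18 and Ano3 had no count in any library.

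Upstream of p53, 22 of 25 genes were tested and 0 were called by edgeR, with a median log2 fold change of 0.03. At an unadjusted edgeR p under 0.05, 2 were higher and 1 lower, where 10.5% and 9.69% of all tested genes were. Atr, the kinase that senses stalled replication forks, was at 45.0 and 48.2 CPM in the knockout, against 25.4 and 21.5 CPM in WT (log2 0.99, SE 0.21, edgeR adjusted p = 0.0607). Mre11a, a nuclease of the double-strand break sensor, was at 59.1 and 55.8 against 84.8 and 88.6 CPM (edgeR adjusted p = 0.0977), Trp53bp1, a break-repair adaptor, at 84.2 and 82.0 against 55.7 and 65.2 CPM, and Rpl11, a ribosomal protein that can bind MDM2, at 95.3 and 102.0 against 137.6 and 113.4 CPM. Genotypes were apart for each of these 4 genes, which were picked by their small p. Of the 22 tested, 5 were higher and 6 lower without overlap, where 25.4% and 24.9% of all tested genes were. The p53 relatives Trp63 and Trp73 had no count in any library.

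Of 18 cell cycle genes that p53 is known to repress through p21 and the DREAM complex, 1 rose and 0 fell, where 1.09% and 1.51% of all tested genes did. Their median log2 fold change was 0.26. At an unadjusted edgeR p under 0.05, 5 were higher and 0 lower, where 10.5% and 9.69% of all tested genes were. The 1 that rose was Mki67, a proliferation marker, at 128.2 and 157.7 CPM in the knockout, against 84.2 and 73.2 CPM in WT (log2 0.86, SE 0.16, edgeR adjusted p = 0.0463). Top2a, E2f1 and Mcm5 also had higher values in both knockout libraries, at edgeR adjusted p = 0.149 to 0.174. The genotypes did not overlap for 8 of the 18, higher in the knockout for all 8, where 25.4% of all tested genes were higher without overlap. Of the 5 tested relatives of p21, 0 were called by edgeR (0 at an unadjusted p under 0.05); Cdkn2d was at 104.9 and 127.3 CPM in the knockout and 113.6 and 91.0 CPM in WT, Cdkn2c at 91.5 and 124.0 against 110.5 and 87.8 CPM, and Cdkn1b at 44.8 and 32.5 against 46.5 and 41.2 CPM.

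Btg2, Gadd45a, Plk2 and Cdkn1a are also immediate early genes in many cells. Of 18 other immediate early genes, Egr1 rose, at 540.5 and 467.8 CPM in the knockout against 275.3 and 278.2 CPM in WT (edgeR adjusted p = 0.0119). Dusp1, Ier2 and Junb fell, at 258.5 and 338.3 against 542.2 and 532.9 CPM for Dusp1, 427.1 and 414.4 against 572.1 and 596.0 CPM for Ier2, and 517.3 and 521.9 against 879.5 and 705.1 CPM for Junb (edgeR adjusted p = 0.0279, 0.0463 and 0.0475). At an unadjusted edgeR p under 0.05 the list had 5 genes higher and 4 lower, where 10.5% and 9.69% of all tested genes were. The genotypes did not overlap for 5 genes that were higher and 6 that were lower, where 25.4% and 24.9% of all tested genes were so, and the median log2 fold change of the list was 0.01.

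The members also differ in how often they carry GGACT, a common form of the sequence that the METTL3 complex methylates; m6A itself was not measured here. In the longest protein-coding transcript of each gene, GGACT occurred at least 1 time in 29 of the 32 members and in 92.4% of 11701 tested genes, with a median of 1.12 per kb in members and 1.05 per kb overall. Sesn2 had 9 copies (2.59 per kb), Sesn1 had 5 (1.31 per kb), Phlda3 had 2 (1.39 per kb) and Cdkn1a had 4 (1.92 per kb). Trp53, Dcxr and Rps27l had none. A match is a description of the letters and not a methylated site.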

How the data were processed

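The authors deposited raw counts per gene, whole numbers with 1 column per library and no pooling; FastQC 0.11.5, STAR 2.6.0a, HTSeq 0.6.1, DESeq2 1.18.1 and the build mm10 are named, without role or order, per the submitters' processing notes. The annotation and the strand setting are not given in the sources here. IDs were matched without version suffix to GENCODE M21 on GRCm38 (53620 of 53715), which also gave exon lengths; gene coordinates from it are printed only where the version matched, while promoter coordinates are those of RefSeq.

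Counts were analysed in R 4.3.3: edgeR 4.0.16 filterByExpr, TMM and the two-sided quasi-likelihood test (robust, legacy=FALSE, no covariate, 2 residual degrees of freedom), Benjamini-Hochberg over all 14185 genes tested, threshold 0.05. SE is the log2 fold change over the square root of F. limma 3.58.1 voom and DESeq2 1.42.0 were alternatives, and the edgeR script was tested on simulated data. Errors cover counting and library spread only. Replicates differed beyond counting noise (chi-square per degree of freedom 28.0 in the knockout and 45.6 in WT).

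The members and gene lists were chosen with earlier results of these data known. Named in full are Mettl3, Trp53, Mdm2, Mdm4, Cdkn1a, called members and the 10 members with the smallest p. From other lists, those called and up to 4 with the smallest p are named. Cd3d, Cd3e, Cd3g, Zbtb16, Cst3, C1qa and the genes at 0 were added after their values were seen. The other lists are further p53 targets, genes upstream of p53, p21 and DREAM targets, p21 relatives, immediate early genes and markers of 6 cell types.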

Additional observations from a re-analysis of the deposited data

How the results depend on the processing

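For the 10 members with the smallest p the genotypes did not overlap, so leaving out a library could hardly turn a direction. Directions of these 10 held under all 12 alternatives (11 for Cdkn1a, which the filter at 5 CPM removes). Outside them, signs turned only for genes that were not called: Mdm4 with total-count scaling, Gadd45a with limma voom, and 2 to 6 members with 1 library left out. Members called higher and lower numbered 5 and 2 with DESeq2, 1 and 1 without a filter, 3 and 2 when at least 5 CPM was asked for in 2 libraries, and 0 to 0 and 0 to 1 with a library left out. Over all genes, calls higher and lower numbered 665 and 676 with DESeq2, 101 and 168 with limma voom, 93 and 154 without a filter, 335 and 392 with the 5 CPM filter, and 13 to 40 and 26 to 132 with a library left out. Over the other pathway lists they numbered 2 and 3 as reported, 6 and 6 with DESeq2, 1 higher with limma voom, 1 and 1 without a filter, 4 higher with the 5 CPM filter, 1 lower with total-count scaling, 1 higher with the gene length trend removed, and 0 to 0 and 0 to 1 with a library left out. These pathway lists hold 102 genes, with the immediate early genes among them. As reported, Mki67 came from the p21 and DREAM list, and Egr1, Dusp1, Ier2 and Junb from the immediate early list. Over all tested genes 1.09% were called higher and 1.51% lower as reported. The members' median log2 fold change was -0.005 without WT replicate 1, against 0.14 with all libraries, and ranged up to 0.271 without WT replicate 2. Why these values moved was not tested; a fit without a library has fewer samples, so that the lone one of its genotype is taken to vary as the other genotype does.

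The replicate numbers did not pair the libraries (correlation of same-numbered deviations -0.0125). A replicate block gave 7 genes higher and 26 lower over all genes, 0 and 0 among the members, and 0 and 0 in the other pathway lists; adjusted p was then 0.0837 for Phlda3, 0.105 for Sesn1 and 0.135 for Sesn2, with log2 fold changes of 1.203, -0.668 and 1.245. Depth limits Cdkn1a, Dcxr and Tnfrsf10b most: they had 4 to 135 counts per library.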
